A study of Rattus norvegicus with 9 samples.

Results

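The calcium and potassium channel genes of bladder muscle were examined in rat bladder tumors, in the tissue beside them and in normal bladder. They are 10 genes, chosen by name with earlier results of these data known. The genes are Kcnma1, Kcnmb1, Cacna1c, Cacna1h, Cacna2d1, Cacna2d3, Kcnj8, Abcc9, Ryr2 and Itpr1. Members were the probe sets that the array annotation gives to exactly 1 of these genes, which were 17 of the 31042 probe sets tested, for 10 of the 14217 genes measured. The 3 tumors were bladder transitional cell carcinomas (BTCC) from SD rats, and the 3 adjacent normal tissues came from rats with BTCC. The 3 normal tissues came from 3 other SD rats, described as normal. The carcinogen MNU was given into the bladder at 20 mg/ml, once a week for 10 weeks, to female rats 10 weeks old. The labels repeat this MNU text on the normal samples, so whether normal rats received an instillation is not settled by them. All 3 groups are whole tissue pieces, so a lower signal from fewer muscle cells and one from less RNA per cell cannot be told apart.

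Smooth muscle of the bladder wall contracts when calcium enters through voltage-gated channels of the plasma membrane and is released from the sarcoplasmic reticulum through IP3 and ryanodine receptors. Potassium channels oppose this, since potassium leaving the cell makes the membrane potential more negative and closes the calcium channels. The large-conductance BK channel opens on calcium and depolarisation, and the ATP-sensitive KATP channel opens when cellular ATP is low. These genes are not particular to muscle: KATP channels are also known from the mural cells of small vessels, and several calcium channels from nerves.

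All 10 channel genes were significantly lower in adjacent tissue than in normal bladder, and 7 of 10 were so in tumors. None was higher in either comparison, and none was called between tumors and adjacent tissue. Of all genes, 11.5% were called lower in adjacent tissue and 9.95% in tumors. Over the alternatives run, the count of channel genes ran from 3 to 10 in adjacent tissue and from 1 to 10 in tumors. The depth of the fall differed widely among the genes, with Kcnma1 at 3.14% of the normal level in tumors and Kcnj8 at 54.7%. Values are given as log2 of the MAS 5.0 signal of the brightest probe set, and tests are limma's moderated test with Benjamini-Hochberg adjustment over all probe sets at a threshold of 0.05. A signal under 50, which is 5.64 on the log2 scale, was treated as dim.

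**Figure D1:**
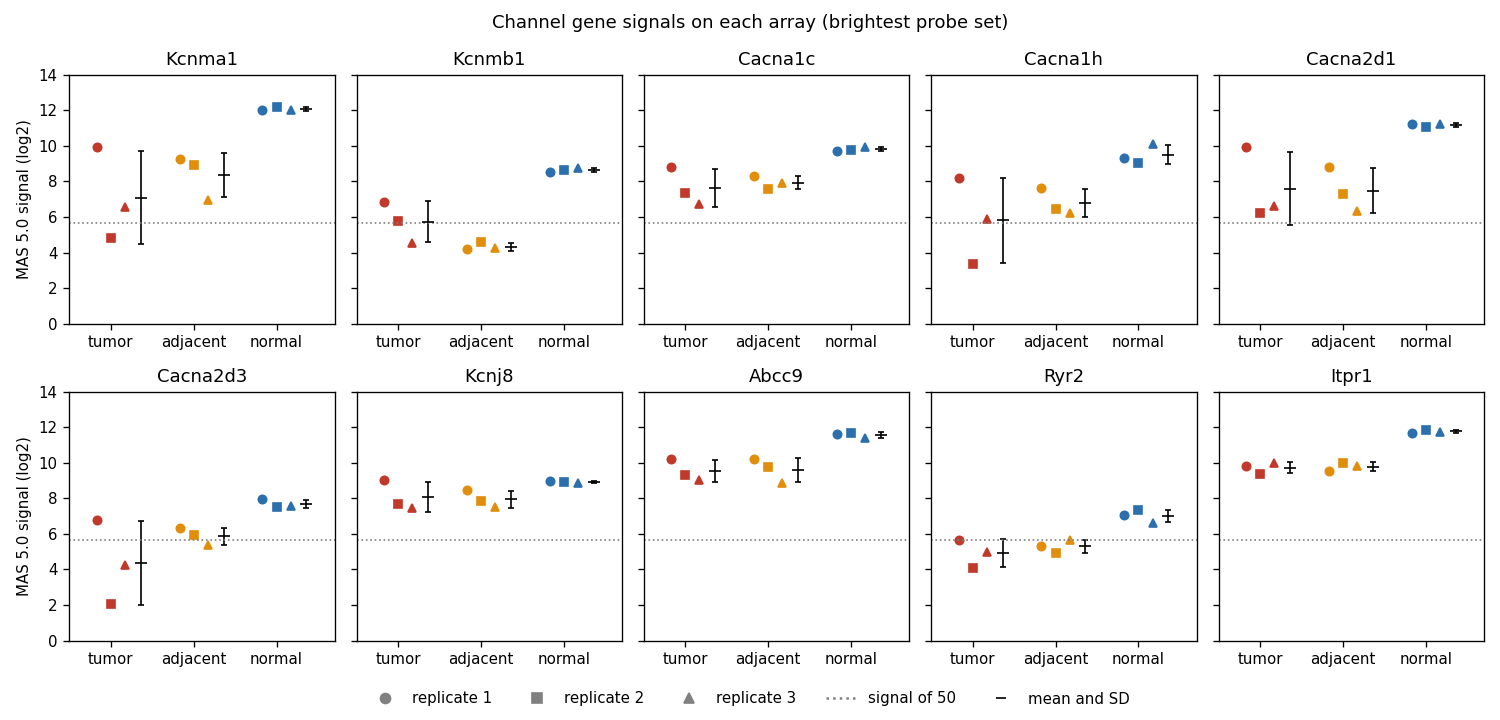
Log2 MAS 5.0 signal (vertical axis) of the 10 channel genes on the 9 arrays, by group: tumor, adjacent and normal. Symbols mark the replicate, bars the mean and SD of 3 arrays, and the dotted line a signal of 50. The normal arrays lie close together, and tumor 1 is the highest tumor for each gene except Itpr1.

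Both genes of the BK channel pair fell in tumors and in adjacent tissue. Kcnma1, which encodes the pore, had log2 signals of 9.92, 4.82 and 6.54 in the 3 tumors, 9.28, 8.90 and 6.98 in the 3 adjacent tissues, and 12.03, 12.21 and 12.03 in the 3 normal bladders. Every tumor and every adjacent tissue was below every normal bladder, and tumor 2 was dim. The change was -5.00 (SE 1.12) in tumors against normal, a 31.9-fold fall with a 95% interval of 5.11 to 199 (limma adjusted p = 0.0254). It was -6.41 without tumor 1 and -3.86 without tumor 2. In adjacent tissue against normal it was -3.70 (SE 0.52), to 7.68% of normal (limma adjusted p = 0.00345). Kcnmb1 encodes the beta-1 subunit, which makes the BK channel of smooth muscle more sensitive to calcium. Its signals were 6.87, 5.76 and 4.56 in tumors, 4.18, 4.59 and 4.24 in adjacent tissues, and 8.52, 8.63 and 8.74 in normal bladders. All adjacent tissues were dim, as was tumor 3, and neither group overlapped the normal bladders. Kcnmb1 fell by 2.90 on the log2 scale (SE 0.53) in tumors against normal (limma adjusted p = 0.0136). In adjacent tissue it was at least 7.92-fold lower than in normal bladder, taking the adjacent tissues at the dim limit. On the deposited values the change was -4.29 (SE 0.28, limma adjusted p = 3.55e-04). In adjacent 1 Kcnmb1 was dim while Kcnma1 was still well above the dim limit. Between tumors and adjacent tissue the fitted difference of Kcnmb1 was 1.39, with a 95% interval of -0.11 to 2.89.

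Kcnma1 has 3 probe sets, and the other 2 were mostly dim. The probe set next in brightness was dim in all tumors and adjacent tissues. It passed in adjacent tissue against normal (limma adjusted p = 0.0436 on the deposited values), where it was at least 1.5-fold lower. In tumors against normal the limma adjusted p was 0.0828. The third had a signal above 50 on 1 normal array only and passed in neither comparison.

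The promoters of this pair are shown because pore and subunit fell together while their start sites differ strongly in composition. Each run is 300 bases of the RefSeq build GRCr8, 250 before and 50 after an annotated start, and capitals mark GGGCGG or its reverse complement CCGCCC. Kcnma1 is at chr15:351675-351974 on the plus strand and Kcnmb1 at chr10:19061849-19062148 on the plus strand.
Kcnma1: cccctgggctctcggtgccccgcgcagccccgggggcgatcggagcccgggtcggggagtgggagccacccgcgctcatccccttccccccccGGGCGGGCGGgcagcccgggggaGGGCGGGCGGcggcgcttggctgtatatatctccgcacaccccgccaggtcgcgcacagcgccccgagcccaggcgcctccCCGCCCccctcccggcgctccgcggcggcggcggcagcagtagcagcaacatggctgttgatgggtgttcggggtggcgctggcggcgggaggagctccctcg
Kcnmb1: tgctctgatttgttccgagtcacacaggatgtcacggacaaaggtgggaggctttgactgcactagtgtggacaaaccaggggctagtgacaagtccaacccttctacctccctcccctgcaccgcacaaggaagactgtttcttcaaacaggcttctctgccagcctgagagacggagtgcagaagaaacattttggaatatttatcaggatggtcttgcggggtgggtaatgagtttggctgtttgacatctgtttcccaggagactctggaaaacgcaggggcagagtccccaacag
The Kcnma1 window held 5 such hexamers and 78.3% G and C, whereas the Kcnmb1 window held 0 and 51.7%, which equals the median of 51.7% over all promoters in the table.

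Among the calcium entry channels, Cacna1c encodes the pore of the L-type channel that carries most of the calcium current of bladder muscle. Its log2 signals were 8.79, 7.36 and 6.71 in tumors, 8.30, 7.56 and 7.94 in adjacent tissues, and 9.74, 9.75 and 9.95 in normal bladders. No tumor or adjacent tissue reached the lowest normal bladder, and no array was dim. Cacna1c fell to 21.9% of normal in tumors (log2 change -2.19, SE 0.48, limma adjusted p = 0.0229) and to 27.1% in adjacent tissue (-1.88, SE 0.21, limma adjusted p = 0.00158). Its other probe set was dim on all tumor and adjacent arrays and on 2 of 3 normal arrays, and its difference in adjacent tissue, though called, gives no bound on a fold.

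Cacna1h encodes the pore of a T-type channel, which opens at more negative potentials. Its signals were 8.17, 3.38 and 5.88 in tumors, 7.66, 6.45 and 6.21 in adjacent tissues, and 9.34, 9.06 and 10.10 in normal bladders. Both groups lay below all normal bladders, but the tumors spread over more than the whole distance between the adjacent and normal means. The fall passed in adjacent tissue (-2.73, SE 0.42, limma adjusted p = 0.00482) and missed the threshold in tumors (-3.69, SE 1.07, limma adjusted p = 0.0541), which it passed under 5 other settings of the analysis. Its other probe set was dim on all 3 tumor arrays and on most of the rest, with changes of 0.04 and 0.00.

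Cacna2d1 and Cacna2d3 encode alpha-2-delta subunits, auxiliary proteins that bring voltage-gated calcium channels to the membrane. Cacna2d1 had log2 signals of 9.94, 6.24 and 6.60 in tumors, 8.82, 7.30 and 6.33 in adjacent tissues, and 11.26, 11.05 and 11.26 in normal bladders. Neither group overlapped the normal bladders, and tumor 1 and adjacent 1 were the highest of their groups. Its change was -3.60 (SE 0.88) in tumors (limma adjusted p = 0.0331) and -3.71 (SE 0.54) in adjacent tissue (limma adjusted p = 0.00378). Cacna2d3 had signals of 6.79, 2.06 and 4.27 in tumors, 6.31, 5.91 and 5.37 in adjacent tissues, and 7.96, 7.50 and 7.58 in normal bladders. Tumors 2 and 3 and adjacent 3 were dim, and again no sample reached the normal bladders. Cacna2d3 passed in adjacent tissue (-1.82, SE 0.32, limma adjusted p = 0.00814) but not in tumors (-3.31, SE 1.06, limma adjusted p = 0.0736).

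The KATP channel is built from the pore Kcnj8 and the sulfonylurea receptor Abcc9, whose genes lie close together on chromosome 4. Kcnj8 had log2 signals of 9.01, 7.69 and 7.46 in tumors, 8.45, 7.86 and 7.52 in adjacent tissues, and 9.0, 8.92 and 8.85 in normal bladders. Tumor 1 was level with the normal bladders, so tumors and normal bladders overlapped, while all adjacent tissues were below normal. Kcnj8 did not pass in tumors, where the change was -0.87 with a 95% interval of -1.78 to 0.04 (limma adjusted p = 0.169). In adjacent tissue it fell by 0.98 on the log2 scale (SE 0.25), to 50.8% of normal (limma adjusted p = 0.0302). Abcc9 had signals of 10.21, 9.31 and 9.02 in tumors, 10.19, 9.75 and 8.85 in adjacent tissues, and 11.60, 11.68 and 11.37 in normal bladders. It was below every normal bladder on all 6 arrays from tumor-bearing rats, tumor 1 included. Abcc9 fell to 24.3% of normal in tumors (-2.04, SE 0.29, limma adjusted p = 0.00705) and to 25.7% in adjacent tissue (-1.96, SE 0.31, limma adjusted p = 0.00518). A second Abcc9 probe set gave changes of -2.51 (limma adjusted p = 0.00402) and -2.55 (limma adjusted p = 0.00281). The third was dim on 8 of 9 arrays and was not called.

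The promoters of this pair are shown because the genes are neighbours but their falls were of unequal size. Kcnj8 is at chr4:177246499-177246798 and Abcc9 at chr4:177386299-177386598, both on the minus strand of GRCr8, with capitals as above.
Kcnj8: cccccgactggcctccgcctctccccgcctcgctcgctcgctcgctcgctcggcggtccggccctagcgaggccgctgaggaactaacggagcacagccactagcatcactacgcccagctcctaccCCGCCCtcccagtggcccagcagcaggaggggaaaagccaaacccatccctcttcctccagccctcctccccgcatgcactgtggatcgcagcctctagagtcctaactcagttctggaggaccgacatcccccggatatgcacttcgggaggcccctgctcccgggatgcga
Abcc9: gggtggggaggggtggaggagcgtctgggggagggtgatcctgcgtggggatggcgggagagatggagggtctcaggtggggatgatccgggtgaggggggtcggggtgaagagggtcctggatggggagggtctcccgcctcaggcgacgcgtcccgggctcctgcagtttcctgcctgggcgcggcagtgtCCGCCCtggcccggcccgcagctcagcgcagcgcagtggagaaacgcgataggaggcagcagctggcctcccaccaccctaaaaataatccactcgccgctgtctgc
Both windows held 1 hexamer, with 67% and 69% G and C. Over the channel genes, 11 promoters of 9 genes were found, and GGGCGG on either strand was in 8 of 11, or 72.7%, against 33.1% of the 33469 promoters in the table. By gene it was 6 of 9, since Cacna2d1 has 3 overlapping windows, and the contractile genes had it in 6 of 11 promoters, or 54.5%. No channel promoter held a CArG box, the binding site of serum response factor searched as its consensus of 10 bases, or TATAAA on either strand, which were in 1.64% and 14.2% of all promoters. The 11 contractile gene promoters found held a CArG box once, in Ldb3. These are counts of letters in a short window and say nothing of which factors act on the genes.

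The release channels of the calcium store gave the tightest result. Itpr1, the type 1 IP3 receptor, had log2 signals of 9.83, 9.38 and 9.96 in tumors, 9.53, 10.01 and 9.79 in adjacent tissues, and 11.69, 11.84 and 11.74 in normal bladders. The 6 arrays from tumor-bearing rats lay within a narrow band, far below the normal bladders, and tumor 1 did not stand above the others. Itpr1 fell to 24.5% of normal in tumors (log2 change -2.03, SE 0.17, limma adjusted p = 0.00181) and to 25.4% in adjacent tissue (-1.98, SE 0.15, limma adjusted p = 5.15e-04). Tumors and adjacent tissue differed by -0.05, with a 95% interval of -0.57 to 0.46. Ryr2 encodes a ryanodine receptor, which opens on calcium itself. Its signals were 5.67, 4.08 and 4.97 in tumors, 5.34, 4.92 and 5.65 in adjacent tissues, and 7.07, 7.33 and 6.63 in normal bladders. Most tumors and adjacent tissues were at or under the dim limit, and the normal bladders were little above it, so there was little room for a measured fall. Ryr2 passed in tumors (-2.10, SE 0.47, limma adjusted p = 0.0246) and in adjacent tissue (-1.70, SE 0.36, limma adjusted p = 0.0152). Its other probe set was dim on every array. With the probe sets of a gene averaged, Ryr2 passed in neither comparison (limma adjusted p = 0.0518 in tumors and 0.181 in adjacent tissue).

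**Figure D2:**
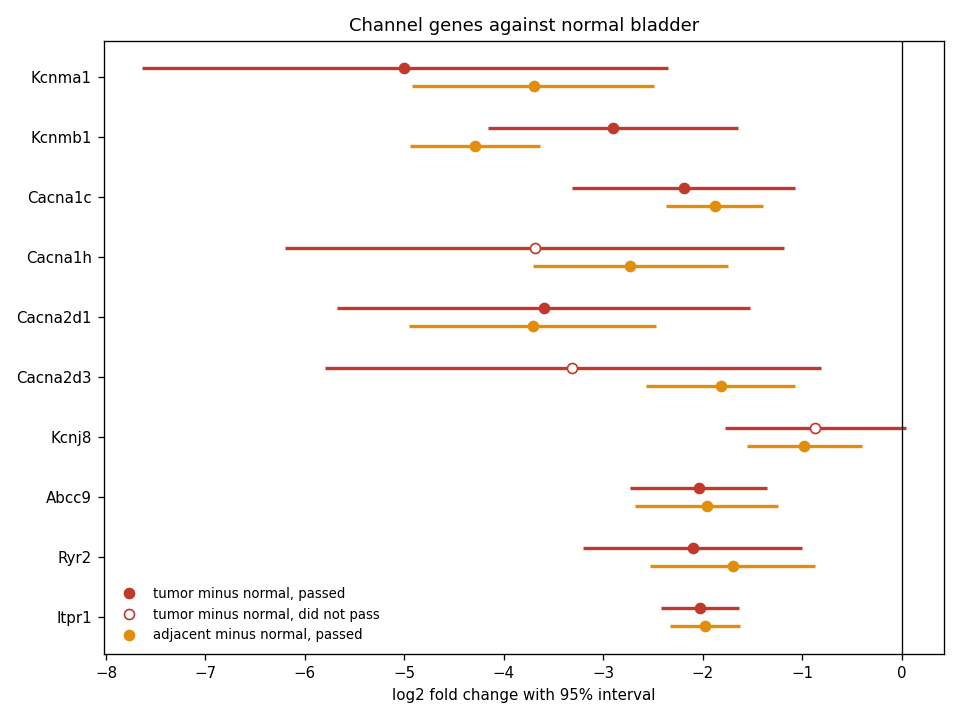
Log2 fold change with its 95% interval (horizontal axis) of each channel gene in tumors and in adjacent tissue against normal bladder, n = 3 arrays a group. Filled points passed the adjusted threshold and open points did not. The intervals of Itpr1 and Abcc9 are narrow and alike in both comparisons, and those of Kcnma1, Cacna1h and Cacna2d3 in tumors are wide.

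Counted over genes, 7 of 10 fell in tumors against normal, where 9.95% of all genes were called lower and 13.6% higher. The median change was -2.55, against 0.05 over all genes, and 9 of 10 genes did not overlap the normal bladders, which held for 20.1% of all genes. In adjacent tissue against normal 10 of 10 fell, where 11.5% of all genes were called lower and 13.3% higher. The median was -1.97, against 0.01 over all genes, and 10 of 10 did not overlap, against 21.9% of all genes. In tumors against adjacent tissue 0 of 10 were called at an adjusted p under 0.05 by limma, as were 0% of all genes lower and 0% higher. At an unadjusted p under 0.05 it was 0 of the 10 genes and 845 of all probe sets, and the unmoderated test of the methods called 0 after adjustment as well. Both comparisons with normal share the same 3 normal arrays. The members were chosen with earlier results of these data known, so the contrast with all genes is a description and not a test. By an exact permutation test of 3 against 3 arrays, the smallest p is 0.1, which 9 genes reached in tumors against normal and 10 in adjacent tissue against normal.

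The counts in tumors depended on single arrays. Without tumor 1 all 10 genes were called, with Cacna1h at an adjusted p of 0.00150, Cacna2d3 at 0.00167 and Kcnj8 at 6.80e-04 (limma). Without tumor 2 it was 5, when Cacna1c and Cacna2d1 were lost, and without tumor 3 it was 3, when Kcnma1 and Ryr2 were lost as well. The count without any 1 of the normal bladders was 2, namely Abcc9 and Itpr1, which were called under every array left out. The sizes moved as well. With 1 array left out, the change in tumors ran over -3.47 to -2.32 for Kcnmb1, -2.78 to -1.74 for Cacna1c, -4.77 to -2.92 for Cacna2d1 and -1.35 to -0.57 for Kcnj8. The lowest of each was without tumor 1, and the highest was without tumor 2 for Cacna2d1 and without tumor 3 for the others. In adjacent tissue Kcnma1 was at -4.15 without adjacent 1 and -3.0 without adjacent 3, and Cacna2d1 at -4.38 and -3.13. In adjacent tissue the count was 7 without normal 1, when Kcnj8, Ryr2 and Cacna2d3 were lost, and 8 without normal 2, when Kcnj8 and Ryr2 were lost. Kcnj8 was also lost without normal 3 or adjacent 2, at a count of 9 each.

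Array medians ran over 6.87 to 7.23 (log2), and arrays of a group correlated at 0.899 to 0.946. The arrays differed in how much contractile gene signal they held. The defining contractile genes of smooth muscle were present in every normal bladder: Myh11, the smooth muscle myosin heavy chain, had log2 signals of 13.80, 8.31 and 9.13 in tumors, 13.06, 11.32 and 9.63 in adjacent tissues, and 14.46, 14.44 and 14.37 in normal bladders. Tumor 1 was close to normal and tumors 2 and 3 were far below it. The summed signal of 15 measured contractile genes was 67.5%, 8.10% and 6.29% of the normal mean in the 3 tumors, and 34.4%, 12.8% and 7.04% in the 3 adjacent tissues. All 15 fell in adjacent tissue against normal (median -3.16). In tumors 7 fell (median -3.88), and 15 did so without tumor 1, but 0 without any 1 of the other 5 arrays. Acta2, Actg2, Cnn1 and Des, all of this list, were at 11.8%, 6.79%, 2.98% and 4.48% of normal in tumors and at 13.3%, 13.5%, 7.53% and 7.57% in adjacent tissue.

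Set against the contractile median of the same array, the channel genes did not move as a block. In tumor 1 the contractile median was 65.2% of normal. There 9 of 10 channel genes stood below that median, although 82.7% of all genes stood above it. In tumors 2 and 3, whose contractile medians were 3.04% and 2.56% of normal, 7 and 9 of 10 channel genes stood above it, as did 98.8% and 99.3% of all genes. Over the channel genes the median level was 39.6%, 13.4% and 10.5% of normal in the 3 tumors and 29.6%, 22.2% and 17.6% in the 3 adjacent tissues. Itpr1 was the clearest case: relative to the contractile median it stood at -1.31, 2.67 and 3.49 in the tumors and at -0.21, 1.76 and 2.46 in adjacent tissues. Abcc9 stood at -0.72, 2.80 and 2.76 in tumors and at 0.65, 1.70 and 1.72 in adjacent tissues. Both were lower than the contractile median in tumor 1 and higher than it in tumors 2 and 3. Single contractile genes differed in tumor 1. Des was at 14.02 there, against 14.28, 14.14 and 14.41 in normal bladders. Synpo2 was at 11.79, against 13.69, 13.77 and 13.62, so the contrast in tumor 1 is with the median and not with every contractile gene.

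Kcnj8 was the channel gene that stood above the contractile median on all 6 arrays, as most genes did, with 94.8%, 98.1% and 98.5% of all genes above it in the 3 adjacent tissues. It was at 0.71, 3.81 and 3.82 in tumors and at 1.54, 2.44 and 3.02 in adjacent tissues (exact permutation p = 0.1 for each group against 3 normal bladders, the smallest possible). Kcnma1 was the opposite, at -1.55, -2.23 and -0.26 in tumors, with a mean difference of -1.33 from normal (exact permutation p = 0.1, n = 3 each). In adjacent tissue Kcnma1 was at -0.79, 0.31 and -0.69, which overlapped the normal bladders (exact permutation p = 0.400, n = 3 each). Cacna2d1 stayed within 1 log2 unit of the contractile median, at -0.64, 0.09 and 0.70 in tumors and -0.35, -0.39 and -0.44 in adjacent tissues. The other 5 genes lay between -2.43 and 3.25 over these 6 arrays, and for those at the dim limit, such as Ryr2, a value above the contractile median is bounded by that limit. In adjacent tissue Cacna1c, Cacna2d3 and Abcc9 also stood above all normal bladders on this scale and Cacna2d1 below them (exact permutation p = 0.1 each, n = 3 each). The exact test cannot go below 0.1 with 3 arrays a group, and the relative values were given no other test.

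**Figure D3:**
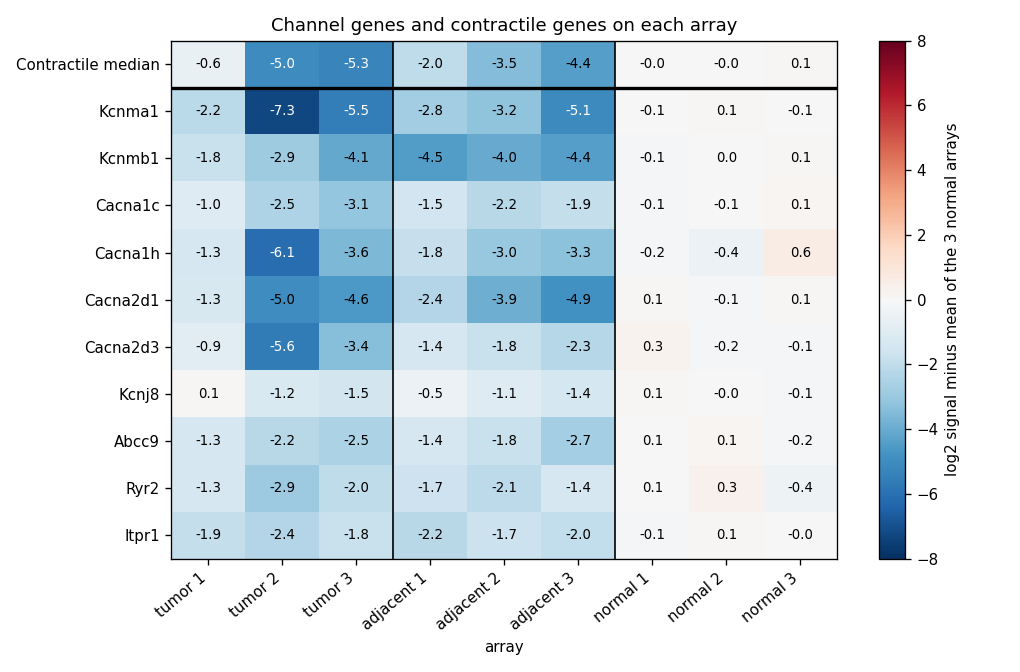
Log2 signal of the contractile median (top row) and of the 10 channel genes on each array, minus the mean of the 3 normal arrays (colour scale and printed values). In tumor 1 the contractile median is -0.6 and the channel genes run from 0.1 to -2.2, while Itpr1 stays near -2 on all tumor and adjacent arrays.

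Other cell types moved too, though their markers did not all move one way. The summed signal of 7 vascular mural cell markers, a cell type known for KATP channels, was 73.8%, 68.9% and 41.2% of normal in the tumors and 44.6%, 49.9% and 43.6% in adjacent tissues. Mcam, a bright gene of that list, was at 31.5% of normal in tumors and 27.2% in adjacent tissue, while Rgs5 was at 141% and 108% and Pdgfrb at 107% and 113%. The list medians were 0.10 in tumors and -0.37 in adjacent tissue, with 1 and 2 genes called lower. Endothelial markers summed to 84.8 to 123% of normal in tumors and 84.0 to 111% in adjacent tissues. Those of interstitial cells and fibroblasts summed to 8.05 to 75.7% and 24.0 to 63.1%, with medians of -2.48 and -1.14. Of this list 1 gene in tumors and 4 in adjacent tissue were called lower, and 1 was called higher in each. Its interstitial cell genes did not follow the sum: Ano1 was at 159% and 146% of normal, and Kit was dim on 8 arrays. Nerve and Schwann cell markers summed to 57.4 to 79.9% of normal in tumors and 19.4 to 55.4% in adjacent tissues, but their medians were -2.53 and -2.76, with 4 and 6 of 8 called lower. Uchl1 was at 120% of normal in tumors and 64.4% in adjacent tissue, and Nefl, a neurofilament gene, at 2.53% and 1.81%.

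Leukocyte markers summed to 433 to 1690% of normal in tumors and 644 to 3960% in adjacent tissues, with 3 and 4 of 8 called higher and medians of 0.75 and 1.75. S100a8 and S100a9 stood highest of this list, S100a9 at 10800% of normal in tumors and 11500% in adjacent tissue. The normal signals of S100a9 were near the dim limit, at 5.29, 7.06 and 5.53. Itgam, a myeloid gene of the same list, was at only 172% and 147% and was dim on 5 arrays. Ptprc, the general leukocyte marker, was at 165% and 330%, and the T cell gene Cd3g at 61.4% and 116%. Markers of dividing cells summed to 482 to 1090% of normal in tumors and 415 to 962% in adjacent tissues. Skeletal muscle markers summed to 22.7 to 75.3% and 31.1 to 32.7%. Basal and squamous epithelium summed to 250 to 296% and 253 to 312%, with 3 of 6 genes measured and medians of 3.58 and 3.72. Of these Krt14 was at 2800% and 2520% of normal and the bright Sprr1a at 129% and 138%. Umbrella cells summed to 63.4 to 90.9% and 49.8 to 99.3%. Their medians were -1.31 and -0.83, with 2 and 1 of 5 called lower. Krt20 was at 7.08% and 30.8% of normal and the bright Upk3a at 89.8% and 83.1%. The cardiac list summed to 1.12 to 52.1% of normal in tumors and 1.19 to 28.3% in adjacent tissues. Of its 5 genes Tnni3 and Myl7 were dim on every array, while Tnnt2 had log2 signals of 13.32, 7.22 and 7.01 in tumors, 12.44, 7.21 and 8.55 in adjacent tissues, and 14.32, 14.14 and 14.31 in normal bladders. The part of these cell types in the channel gene results was not tested.

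Similar patterns among the channel genes were measured by the root mean square (RMS) difference of log2 signals over the 9 arrays, after each gene was set to 0 at its normal mean. The closest pair was Cacna1c and Abcc9 (0.41), then Ryr2 and Itpr1 (0.44). The farthest was Kcnma1 and Kcnj8 (3.02). Among all genes with a mean log2 signal of at least 7, Kcnma1 was closest to Kcnd3 (0.33), Clec3b (0.34) and Cped1 (0.36). Kcnmb1 was closest to Selenbp1 (0.52), Fez1 (0.57) and Wnk2 (0.65), Cacna1c to Fnbp1 (0.23), Camkk1 (0.25) and Meis1 (0.26), and Cacna1h to Meis2 (0.44), Adam33 (0.50) and Pi16 (0.53). Cacna2d1 was closest to Plin4 (0.22), Irag1 (0.26) and Pkia (0.26), and Cacna2d3 to Igfbp5 (0.34), Cpxm1 (0.36) and Plekha4 (0.39). Kcnj8 was closest to Tspan5 (0.13), Hspg2 (0.14) and Stard13 (0.15), and Abcc9 to Gsn (0.16), Nfia (0.16) and Fndc5 (0.21). Ryr2 was closest to Jph1 (0.17), Creb5 (0.22) and Rgs1 (0.24), and Itpr1 to Fbxo30 (0.24), Atl2 (0.25) and Idh2 (0.27). Kcnd3 is on the list of other potassium channels, and Irag1 and Jph1, a protein that joins the store to the plasma membrane, are on the list of calcium store genes.

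The other subunits of the same channels did not all fall. Of the 3 IP3 receptors, Itpr1 fell, Itpr2 did not pass (-0.34 in tumors against normal, limma adjusted p = 0.330), and Itpr3 rose. Itpr3, the IP3 receptor known from epithelial cells, had log2 signals of 10.58, 11.10 and 10.73 in tumors, 9.86, 10.26 and 10.41 in adjacent tissues, and 8.09, 8.49 and 8.03 in normal bladders. All 6 arrays from tumor-bearing rats were above all normal bladders. Itpr3 rose by 2.60 on the log2 scale (SE 0.19) in tumors (limma adjusted p = 0.00156) and by 1.97 (SE 0.20) in adjacent tissue (limma adjusted p = 0.00117). It was also higher in each tumor than in any adjacent tissue, by 0.63, which did not pass (limma adjusted p = 1.0).

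The auxiliary subunits of the BK channel divided in the same way. Kcnmb4, the beta-4 subunit known from neurons, had signals of 7.14, 6.22 and 6.36 in tumors, 6.53, 6.37 and 6.74 in adjacent tissues, and 7.62, 7.82 and 7.77 in normal bladders. It fell to 44.7% of normal in tumors (limma adjusted p = 0.0347) and to 43.9% in adjacent tissue. Lrrc26, a gamma subunit known from secretory epithelia, had signals of 6.81, 7.69 and 7.45 in tumors, 6.83, 7.78 and 7.09 in adjacent tissues, and 5.41, 5.18 and 4.80 in normal bladders, which were all dim. Lrrc26 was at least 3.19-fold higher in tumors and at least 3.01-fold higher in adjacent tissue than in normal bladder, taken at the dim limit. On the deposited values the limma adjusted p was 0.00936 in tumors and 0.00805 in adjacent tissue. Of the other KATP subunits, the pore Kcnj11 did not pass in either comparison and the receptor Abcc8 was dim on every array.

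**Figure D4:**
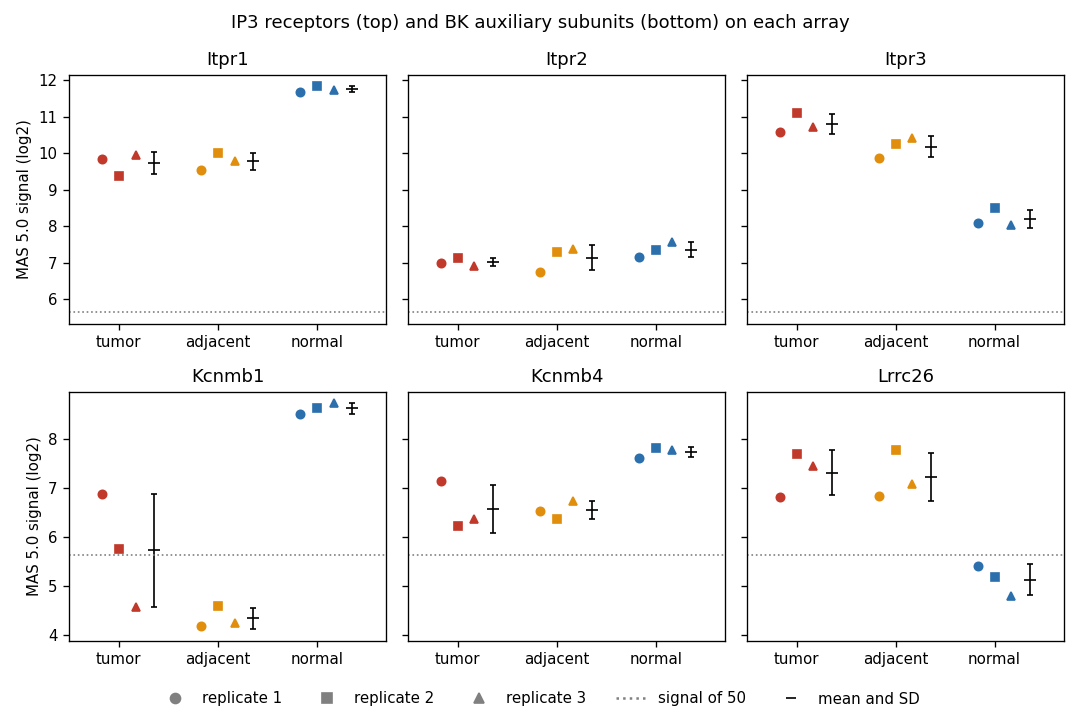
Log2 MAS 5.0 signal (vertical axis) of the 3 IP3 receptors and of 3 auxiliary subunits of the BK channel on each array, by group: tumor, adjacent and normal. Symbols mark the replicate, bars the mean and SD of 3 arrays, and the dotted line a signal of 50. Itpr1, Kcnmb1 and Kcnmb4 are lower, and Itpr3 and Lrrc26 higher, on every tumor and adjacent array than on any normal array.

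Among other potassium channels, 44 of 51 listed genes were measured and 10 of these were dim on every array. In tumors against normal 3 rose and 7 fell (median 0.08), and in adjacent tissue 4 rose and 10 fell (median -0.36). The deepest falls were those of Kcnd3, the pore of an A-type channel, with -4.74 (SE 1.21) in tumors and -3.70 (SE 0.47) in adjacent tissue, of Kcnip2, its cytoplasmic partner, with -3.13 (SE 0.31) and -3.25 (SE 0.32), and of Kcne4, an inhibitory subunit, with -2.64 (SE 0.56) and -2.51 (SE 0.27). Among the tumor and adjacent arrays, Kcnd3 was dim on 3 and Kcnip2 on 4, so the sizes of their falls are uncertain. The leak channel Kcnk5 rose by 1.25 (SE 0.33) in tumors and by 1.23 (SE 0.32) in adjacent tissue. Kcnk1, of the same family, rose by 0.79 (SE 0.17) in tumors and by 0.79 (SE 0.14) in adjacent tissue. Kcne3, an auxiliary subunit known from epithelia, was at 2.61 (SE 0.76) in tumors, which missed the threshold (limma adjusted p = 0.0555), and rose by 1.79 (SE 0.36) in adjacent tissue. Leaving out each array in turn gave 1 to 10 falls and 1 to 6 rises in tumors, and 5 to 11 falls and 2 to 6 rises in adjacent tissue.

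Among other calcium channels, 17 of 19 were measured and 7 were dim on every array. Cacnb2, a cytoplasmic beta subunit of the L-type channel, fell in tumors, with -2.57 (SE 0.59, limma adjusted p = 0.0262), and in adjacent tissue, with -2.43 (SE 0.47, limma adjusted p = 0.0113). Cacnb1, another beta subunit, fell in adjacent tissue with -1.27 (SE 0.26). No listed gene rose, and the list medians were -0.28 in tumors and -0.54 in adjacent tissue against normal. With 1 array left out, 0 to 2 fell in tumors and 0 to 2 in adjacent tissue.

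Of the calcium store, entry and pump genes, 40 of 42 were measured and 6 were dim on every array. In tumors against normal 4 rose and 12 fell (median -0.56), and in adjacent tissue 5 rose and 17 fell (median -0.76). Ryr3, a further ryanodine receptor, had log2 signals of 8.10, 3.68 and 1.26 in tumors, 7.36, 4.14 and 4.82 in adjacent tissues, and 10.44, 10.45 and 10.61 in normal bladders. Its changes were -6.16 (SE 1.5, limma adjusted p = 0.0325) and -5.06 (SE 0.72, limma adjusted p = 0.00356), with tumor 1 and adjacent 1 the highest of their groups. Among the tumor and adjacent arrays Ryr3 was dim on 4, so the sizes of its falls are uncertain. Pln, the inhibitor of the store's calcium pump, had changes of -4.80 (SE 0.60) in tumors and -4.22 (SE 0.29) in adjacent tissue, and Irag1, which couples cGMP kinase to Itpr1, of -3.44 (SE 0.70) and -3.58 (SE 0.57). Next to Itpr3, Trpc6, a cation channel opened by diacylglycerol, rose by 1.99 (SE 0.40) in tumors and by 1.78 (SE 0.39) in adjacent tissue, and Orai2, a store-operated entry channel, by 1.61 (SE 0.29) and by 1.81 (SE 0.18). With 1 array left out, 3 to 16 fell and 2 to 5 rose in tumors, and 11 to 18 fell and 3 to 6 rose in adjacent tissue.

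**Figure D5:**
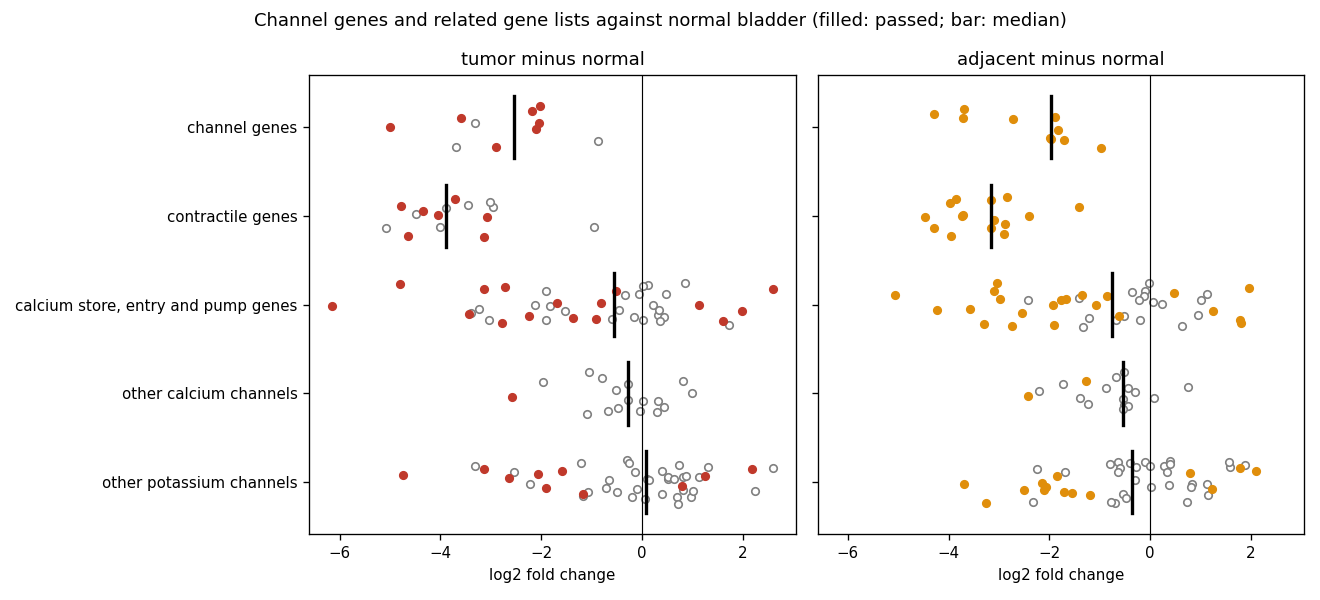
Log2 fold change (horizontal axis) of the 10 channel genes and of 4 gene lists in tumors and in adjacent tissue against normal bladder, with 1 point a gene. Filled points passed the adjusted threshold and black bars are medians. The channel genes lie below 0 throughout, while the other potassium channels lie on both sides of it.

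Between tumors and adjacent tissue no gene of these lists passed. Among potassium channels the smallest p-values belonged to Kcnj16 with 1.45 (SE 0.42) and Kcna3 with 2.83 (SE 0.86). Kcna3 was dim on every array and Kcnj16 on every adjacent array. Among calcium channels they belonged to Cacnb1 with 0.74 (SE 0.37) and Cacna1i with 1.28 (SE 0.81), which was dim on every adjacent array. Among store genes they belonged to Itpr3 with 0.63 (SE 0.22) and Atp2a3 with -0.94 (SE 0.52). Each had a limma adjusted p of 1.0. The intervals of the 10 channel genes in this comparison were wide for Kcnma1 (-4.15 to 1.56), Cacna2d3 (-4.03 to 1.06) and Cacna1h (-3.52 to 1.60). For these genes a level many fold lower in tumors was not excluded with these 6 arrays, and neither was a smaller difference upward. Those of Itpr1 (-0.57 to 0.46), Abcc9 (-1.05 to 0.89) and Kcnj8 (-0.94 to 1.16) were narrower.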

How the data were processed

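Total RNA of 9 samples was hybridised to Affymetrix arrays after 3′ in vitro transcription labelling, 3 arrays each for tumor, adjacent and normal tissue. The authors normalised the raw data with the MAS 5.0 algorithm. The deposited values are log2 signals, and their linear mean, with 2% of probe sets trimmed from each end, was 500 on each array. No further scaling or log transformation was made. The number of arrays limits the precision.

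The 57 array controls were left out of 31099 probe sets. The platform annotation gives 1 gene to 20826 of the 31042 probe sets, several to 436 and none to 9780. Symbols were updated through gene identifiers to RefSeq. Each gene was represented by its brightest probe set over the 9 arrays. Groups were compared by limma 3.58.1 in R 4.3.3 with a fit of the 6 arrays of each pair of groups and a mean-variance trend, checked on simulated data. Where all arrays of a group were under 50, a limit set after earlier results, the group was taken at that limit for a fold given as at least. The limma tests used the deposited values throughout. The members and lists were chosen with earlier results of these data known. From each list up to 3 genes with the largest called rise and fall were named, or the 2 with the smallest p where none was called, and Itpr2, Kcnmb4, Kcnj11 and Abcc8 were added after their values were seen. The series design pairs tumor and adjacent tissue within rats, but no label ties a replicate number to a rat. Alternatives were other normalisations, a filter, an offset of 50, no trend, 1 model over all 9 arrays, a replicate block, the t-test of the methods, averaged probe sets, and each array left out.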

Additional observations from a re-analysis of the deposited data

Results flagged for a closer look

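4 genes of the related lists and cell type markers had every tumor on one side of the normal mean and every adjacent tissue on the other. The difference of the effects is the direct comparison of tumors with adjacent tissue, in which each had a limma adjusted p of 1.0. Kcna3, a potassium channel, was at 0.51 on the log2 scale in tumors and -2.32 in adjacent tissue against normal, a difference of 2.83, and was dim on every array. Kcnj16, another potassium channel, was at 0.81 in tumors and -0.64 in adjacent tissue against normal, a difference of 1.45. It was dim on every adjacent array. Higd1b, a marker of mural cells, was at 0.33 in tumors and -0.49 in adjacent tissue (difference 0.82). Ms4a1, a marker of B cells, was at -1.21 in tumors and 1.93 in adjacent tissue (difference -3.14). Ms4a1 was dim on 8 arrays, among them every tumor and normal array, so the size of its difference is uncertain. None of the 10 channel genes had its tumors and adjacent tissues split in this way by the normal mean.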

How the results depend on the processing

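Each channel gene kept its direction in tumors and in adjacent tissue against normal under every alternative run. In tumors against normal, 5574 probe sets and 7 channel genes lower became 2376 and 3 without the variance trend, and 1764 and 1 by the methods' t-test after adjustment. The count of channel genes was 8 after quantile normalisation or median centring, and 9 with the offset or a fit of all 9 arrays. Cacna1h passed under these 4 settings and the filter (limma adjusted p 0.0249 to 0.0466), and Cacna2d3 with the offset (0.0295) and the fit of all arrays (0.0432). Leaving out 1 array gave 1453 to 9216 probe sets and 2 to 10 channel genes. In adjacent tissue against normal, 5873 probe sets became 3414 without the trend and 2394 by the t-test, and 2691 to 7198 with 1 array left out. Its 10 channel genes became 3 by the t-test after adjustment, 7 in a fit of all 9 arrays, 8 under the filter, which removes the dim members Cacna2d3 and Ryr2, and 7 to 10 with 1 array left out. With averaged probe sets the count was 6 in tumors and 9 in adjacent tissue, with Ryr2 lost in each. At the unadjusted threshold of the methods the t-test gave 7 and 10. The cause of these changes was not tested. Over all probe sets the median change in tumors was -0.05, and it was 0.15 after median centring and 0.07 after quantile normalisation. Of the probe sets called, 49.4% were higher in tumors and 45.7% in adjacent tissue, and 62.3% and 63.0% after centring.

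Same-numbered tumors and adjacent tissues correlated at 0.24, 0.04 and 0.14 in their deviations from the group means. Differently numbered ones ran from -0.21 to 0.11, the highest being tumor 2 with adjacent 3. Tumors 1 and 3 correlated best with the adjacent tissue of their own number. These values do not settle whether the numbers pair the samples, and the main fit did not pair them. With the replicate block, 0 probe sets and 0 channel genes lower were called between tumors and adjacent tissue. The block was also run against normal, where same-numbered samples come from different rats, so it has no basis in the design. There 3705 probe sets and 6 channel genes were called in tumors, where Ryr2 was lost (limma adjusted p = 0.0541). In adjacent tissue 10 channel genes were called.

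Between tumors and adjacent tissue no alternative called a channel gene, and small differences changed sign. With the mean of all probe sets Cacna1c was at 0.93 and Abcc9 at 0.23. With 1 array left out, Cacna2d1 ran over -1.06 to 0.79, Kcnj8 over -0.37 to 0.41, Cacna1h over -2.14 to 0.25, Abcc9 over -0.45 to 0.21, Ryr2 over -0.78 to 0.01, Itpr1 over -0.18 to 0.12 and Cacna1c over -0.89 to 0.15. Signals under 50 carry little information on the size of a fall.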
